A study of Mus musculus with 2 samples.

Results

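The cells described here are lymphocytes of the mouse small intestine, sorted for the IL-23 receptor reporter, that carried Ret transcripts. They had no transcript of Ncr1, Ccr6 or Cd4 and at most 2 transcripts of MHC class II genes. Such genes usually divide type 3 innate lymphoid cells (ILC3s) into subsets. The cells were chosen by their transcripts. A cell was included when it had at least 500 detected genes and at most 10% mitochondrial unique molecular identifiers (UMIs, each 1 captured transcript), no UMI of the CD3 chains Cd3e, Cd3d and Cd3g, none of Ncr1, Ccr6 or Cd4, at most 2 UMIs of H2-Aa, H2-Ab1 and H2-Eb1 together, and at least 1 UMI of Ret. Of 20041 cells that passed the filters on genes and mitochondrial UMIs, 11406 met the marker-negative gate, and 3606 of these carried Ret. The 3606 Ret-positive cells comprised 2092 unstimulated and 1514 stimulated cells, and the remaining 7800 cells of the gate, with 0 Ret UMIs, served as the comparison. Because Ret transcripts chose the cells, the Ret level in them is a description, and the genes of the gate were left out of every comparison between Ret-positive and Ret-negative cells.

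Both groups came from Il23r-eGFP mice, in which green fluorescent protein reports the IL-23 receptor gene, and live fluorescent cells were sorted from small-intestinal leukocytes after Peyer's patches and epithelium had been removed. The unstimulated group received no cytokine according to its treatment label, and the stimulated group received recombinant mouse IL-23 for 2 hours. The protocol text is the same for both samples and describes IL-23 treatment, so the difference between the groups rests on the treatment labels alone. Each group is 1 10x Genomics library, so no test was possible between libraries, and all intervals below are 95% intervals for counting error only. The labels do not state the number, age or sex of the mice, whether they carried 1 or both reporter alleles, or whether the unstimulated cells were incubated as well.

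RET is a receptor tyrosine kinase that binds ligands of the glial cell line-derived neurotrophic factor (GDNF) family together with GFRα co-receptors. It is best known for its role in forming the enteric nervous system, and in the gut it is also carried by ILC3s, where ligands from enteric glia can act on IL-22 output. ILC3s respond to IL-23 through STAT3, and are usually divided into cells with the natural cytotoxicity receptor NKp46 (Ncr1), cells of the lymphoid tissue inducer type with Ccr6, and cells with neither.

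The deposited libraries held 11096 unstimulated and 10440 stimulated cell barcodes, of which 10790 and 9251 passed the filters. Ret-positive cells had a median of 4736.5 UMIs in the unstimulated and 5808 in the stimulated library, close to the 4645.5 and 5701 of the Ret-negative cells. The libraries shared 29 barcodes, 5 and 4 of them among the Ret-positive cells. At least 1 UMI of a T cell receptor constant gene (Trac, Trbc1, Trbc2, Trdc, Tcrg-C1, Tcrg-C2 or Tcrg-C4) was present in 72.4% (70.4 to 74.3) and 71.1% (68.8 to 73.4) of the Ret-positive cells, and in 71.1% and 70.5% of the Ret-negative ones. Among cells with CD3 UMIs (at least 3), 99.6% and 99.1% had such a UMI, and among Ncr1-positive cells without CD3 90.5% and 87.9% had one. Taken singly, Trac had a UMI in 0.860% and 0.330% of the Ret-positive cells, and Trdc in 1.48% and 1.32%. Whether these constant-gene UMIs mark T cells with undetected CD3 was not tested.

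The label of an ILC3 was checked against its markers. All 14 genes of an ILC3 list reached at least 10 UMIs per 1e+06 UMIs of the group (CPM) in Ret-positive cells of both libraries. Among the 14 are Il23r, Il7r, Il22, Id2, Kit, Il1r1, Gata3, Rora, Tcf7, Tox, Il2rg, Thy1 and Ahr. Cells with CD3 UMIs also had all 14 at that level, and Il23r reporter fluorescence was the basis of the sort. Presence of these genes therefore does not separate ILC3s from T cells. The list summed to 10579 and 32365 CPM in Ret-positive cells, most of it Il22, against 5272.5 and 15756 CPM in cells with CD3 UMIs. An alpha beta T cell list without CD3 genes summed to 523 and 399 CPM, against 1921 and 1458 CPM in cells with CD3 UMIs. Of its 9 genes, only Trbc1 and Trbc2 reached 10 CPM in Ret-positive cells. A gamma delta T cell list summed to 88.3 and 67.3 CPM, against 1840 and 1525 CPM. The 15 markers of enteric neurons and glia, the other gut cells known for Ret or its ligands, summed to 0.654 and 0.316 CPM, with Elavl4 and Sox10 at 0 in both. B and plasma cell markers summed to 20.4 and 15.3 CPM with Ms4a1 and Pax5 at 0, and mast cell and granulocyte markers to 0.187 and 0.105 CPM. The macrophage and dendritic cell list summed to 157 and 165 CPM, of which Cst3 alone made 154 and 163 CPM, and Itgax, Cd209a and Fcgr1 were at 0. The part of the label that says "lacking subset markers" held for the genes of the gate but not for the wider lists, as the comparisons below show.

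Ret was not confined to the gate. Its transcripts were counted at 103 CPM (99.7 to 107) over all gate cells of the unstimulated library and at 80.0 CPM (76.8 to 83.3) in the stimulated one. Ccr6-positive cells (no CD3, Ncr1 or Cd4 UMI and at most 2 of MHC class II) stood at 110 and 104 CPM, and cells with CD3 UMIs at 109 and 87.5 CPM. Ncr1-positive cells were lower, at 56.1 CPM (50.8 to 61.8) and 45.0 CPM (41.1 to 49.2), and cells with more than 2 MHC class II UMIs stood at 62.3 and 58.7 CPM. In order of level, the unstimulated Ccr6-positive cells, the CD3-positive cells, the gate and the Cd4-positive cells (98.6 CPM) had overlapping intervals, and all 4 lay above the MHC class II-positive and Ncr1-positive cells, whose intervals overlapped each other. In the stimulated library the gate lay below the Ccr6-positive cells, with the CD3-positive cells between them.

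The share of gate cells with a Ret UMI was 32.5% (31.3 to 33.6) in the unstimulated and 30.5% (29.2 to 31.8) in the stimulated library. With every cell thinned to 3000 UMIs, which left out 649 and 450 shallower gate cells, the shares were 24.2% (23.1 to 25.3) and 19.6% (18.4 to 20.8). Thinned shares of Ccr6-positive cells were 26.2% and 24.4%, and those of Ncr1-positive cells 12.2% and 12.01%. The B cells serve as a level for free RNA: 3 of 24 unstimulated and 3 of 16 stimulated B cells had a Ret UMI, at median depths of 7146.5 and 6441.5 UMIs, which gave 32.5 CPM (14.9 to 61.7) and 38.6 CPM (15.5 to 79.6). The unstimulated gate lay above that B cell range, whereas the interval of the stimulated gate overlapped its upper end. The few myeloid cells gave a wider range, with Ret in 2 of 10 and 2 of 6 cells, at 29.4 CPM (3.56 to 106) and 67.0 CPM (13.8 to 196), which overlaps the gate in both libraries. Cells with a single Ret UMI therefore cannot be told apart one by one from cells that carry free Ret RNA.

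**Figure D1:**
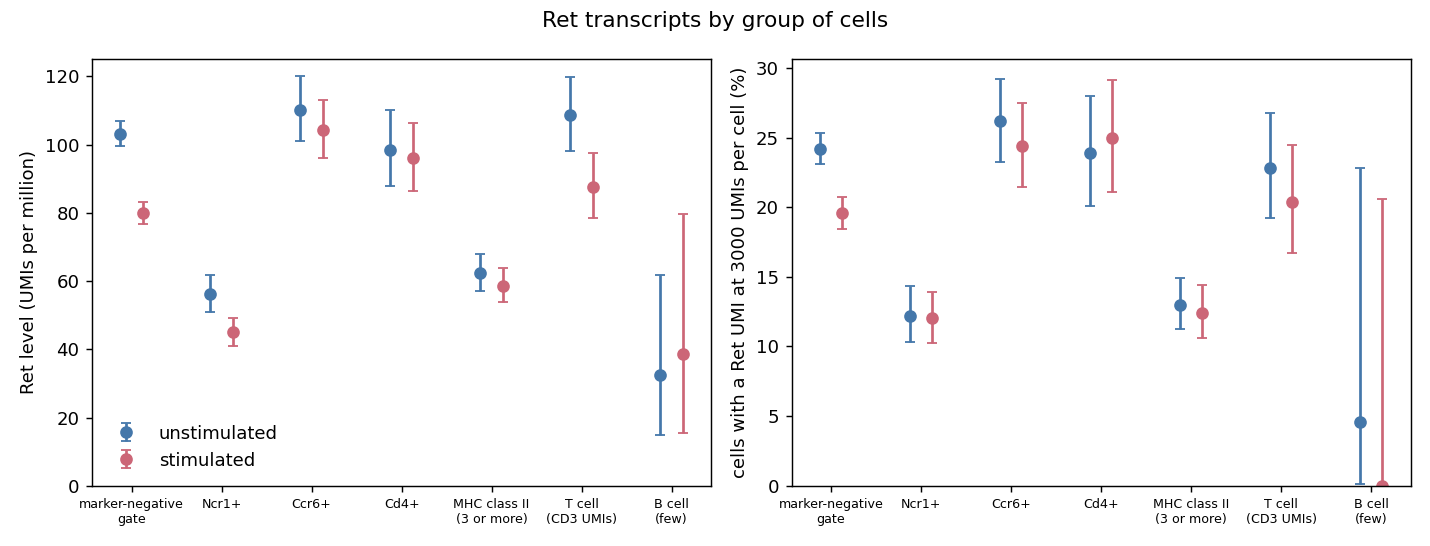
Ret level in UMIs per 1e+06 UMIs (left) and percentage of cells with at least 1 Ret UMI after thinning each cell to 3000 UMIs (right), for the marker-negative gate and other groups of cells in both libraries. Points are values and bars are 95% Poisson or binomial intervals; the gate, at 103 and 80.0 CPM, lies above the Ncr1-positive cells at 56.1 and 45.0 CPM, and below the Ccr6-positive cells in the stimulated library.

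Most Ret-positive cells held 1 Ret UMI: 1340 of 2092 (64.1%) in the unstimulated and 965 of 1514 (63.7%) in the stimulated library. Exactly 2 Ret UMIs were found in 489 and 356 cells, and at least 3 in 263 and 193 cells, with a maximum of 9 and 8. Cells just inside the threshold, with 1 Ret UMI, had a median of 4655 and 5725 UMIs in all, and cells just outside it, with 0, had 4645.5 and 5701. The Ret gene (ENSMUSG00000030110) lies on the minus strand of chromosome 6 between 118151745 and 118197718 in GENCODE M21 on GRCm38.

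Besides Ret, 4 genes had been proposed as markers of these cells from earlier results on the same libraries: Fgl2, which encodes the secreted, immunosuppressive fibrinogen-like protein FGL2; Spry2, a feedback inhibitor of receptor tyrosine kinase signalling; Gjb2, the gap junction protein connexin 26; and Tnfrsf18, the costimulatory receptor GITR. Their start-site regions are shown as a description of sequence, because ILC3s respond to the stimulus through STAT3. Whether STAT factors bind there was not tested. RefSeq promoters (250 bases before to 50 after the start site, GRCm38.p6) matched 4 of the 5 marker genes. They were searched on both strands for TTCNNNGAA, the core letters bound by STAT factors, for TGANTCA, those of AP-1, and for AGGTCA, a core bound by many nuclear receptors; capitals mark these letters, or their reverse complement, and no match overlapped another. The regions are chr5:21372423-21372722 (+) for Fgl2, chr4:156026072-156026371 (+) for Tnfrsf18, chr14:105896770-105897069 (-) for Spry2 and chr14:57104653-57104952 (-) for Gjb2.
Fgl2: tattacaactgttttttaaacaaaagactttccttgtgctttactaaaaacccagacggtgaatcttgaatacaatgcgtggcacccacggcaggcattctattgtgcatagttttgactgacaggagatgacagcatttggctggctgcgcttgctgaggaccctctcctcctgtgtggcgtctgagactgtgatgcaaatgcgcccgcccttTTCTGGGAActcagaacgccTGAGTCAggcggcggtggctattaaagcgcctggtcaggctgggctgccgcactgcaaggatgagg
Tnfrsf18: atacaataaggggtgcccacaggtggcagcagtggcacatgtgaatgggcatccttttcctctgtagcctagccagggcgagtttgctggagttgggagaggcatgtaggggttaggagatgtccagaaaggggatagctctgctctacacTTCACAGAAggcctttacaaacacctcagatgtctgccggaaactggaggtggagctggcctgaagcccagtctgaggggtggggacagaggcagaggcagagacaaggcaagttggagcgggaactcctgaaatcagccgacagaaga
Spry2: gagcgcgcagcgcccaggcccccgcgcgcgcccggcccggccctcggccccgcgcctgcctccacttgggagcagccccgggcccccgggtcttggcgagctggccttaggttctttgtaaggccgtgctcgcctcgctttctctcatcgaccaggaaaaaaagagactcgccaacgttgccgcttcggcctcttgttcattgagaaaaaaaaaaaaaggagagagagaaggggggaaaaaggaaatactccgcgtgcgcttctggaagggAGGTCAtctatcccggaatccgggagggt
Gjb2: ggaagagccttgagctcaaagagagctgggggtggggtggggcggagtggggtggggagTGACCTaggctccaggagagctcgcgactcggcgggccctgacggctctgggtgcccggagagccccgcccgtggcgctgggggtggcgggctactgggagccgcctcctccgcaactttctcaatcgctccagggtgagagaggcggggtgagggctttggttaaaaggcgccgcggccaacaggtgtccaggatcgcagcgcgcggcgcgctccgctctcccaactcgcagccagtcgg

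The Fgl2 region holds 1 STAT match beginning 36 bases before the start site and 1 AP-1 match 16 bases before it. The Tnfrsf18 region holds 1 STAT match beginning 99 bases before the start. Spry2 has a nuclear receptor match 21 bases after the start and Gjb2 has one on the opposite strand 191 bases before it. Of 32851 promoters of the same length, 8.30% hold the STAT letters, 7.81% the AP-1 letters and 16.3% the nuclear receptor letters, so such matches are common and describe the sequence only.

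Of these 4 genes, Fgl2 and Spry2 were higher in Ret-positive than in Ret-negative cells, and Gjb2 and Tnfrsf18 were nearly level. Fgl2 stood at 387 CPM (375 to 399) in Ret-positive against 292 CPM (285 to 299) in Ret-negative unstimulated cells, and at 578 CPM (563 to 594) against 429 CPM (420 to 438) in the stimulated library. These are log2 ratios of 0.41 and 0.43, and the counting intervals did not overlap in either library. Spry2 stood at 106 CPM (100.3 to 113) against 86.3 CPM (82.3 to 90.4), and at 133 CPM (126 to 141) against 110.4 CPM (106 to 115), for log2 ratios of 0.30 and 0.27. Both differences are below the 1.5-fold that served here as the size of a called difference. Because the 4 genes were proposed from these same libraries, their differences are a description and not an independent check. For Gjb2 the values were 161 CPM (153 to 169) against 154 CPM (149 to 159) and 103 CPM (96.7 to 109.7) against 90.8 CPM (86.7 to 95.1), so that the intervals overlapped in the unstimulated library and parted in the stimulated one. Tnfrsf18 leaned the other way, at 266 CPM (256 to 276) against 275 CPM (268 to 282) and at 491 CPM (477 to 505) against 524 CPM (514 to 534).

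Fgl2 and Spry2 levels were also ordered by the number of Ret UMIs in a cell. Fgl2 stood at 374 CPM in cells with 1 Ret UMI, 401 CPM with 2 and 420.0 CPM with at least 3 in the unstimulated library, and at 559, 592 and 639 CPM in the stimulated one. Spry2 showed the same order, with 99.1, 117 and 121 CPM and then 122, 148 and 154 CPM. The intervals of neighbouring classes overlapped, except those of stimulated cells with 1 and 2 Ret UMIs for Spry2. Gjb2 and Tnfrsf18 did not show this order in both libraries. At 3000 UMIs per cell, 52.5% (50.3 to 54.8) of unstimulated Ret-positive cells had an Fgl2 UMI against 44.3% of Ret-negative ones, and 62.4% against 50.05% after stimulation. All 4 were found in 2.90% of Ret-positive and 1.80% of Ret-negative unstimulated cells at that depth, and none of the 4 in 15.5% and 17.1%. In the stimulated library all 4 were found in 3.79% and 1.83%, and none in 8.75% and 12.9%. At this depth a gene goes uncounted in many cells that carry it, so these shares do not bound the cells that express all 4.

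**Figure D2:**
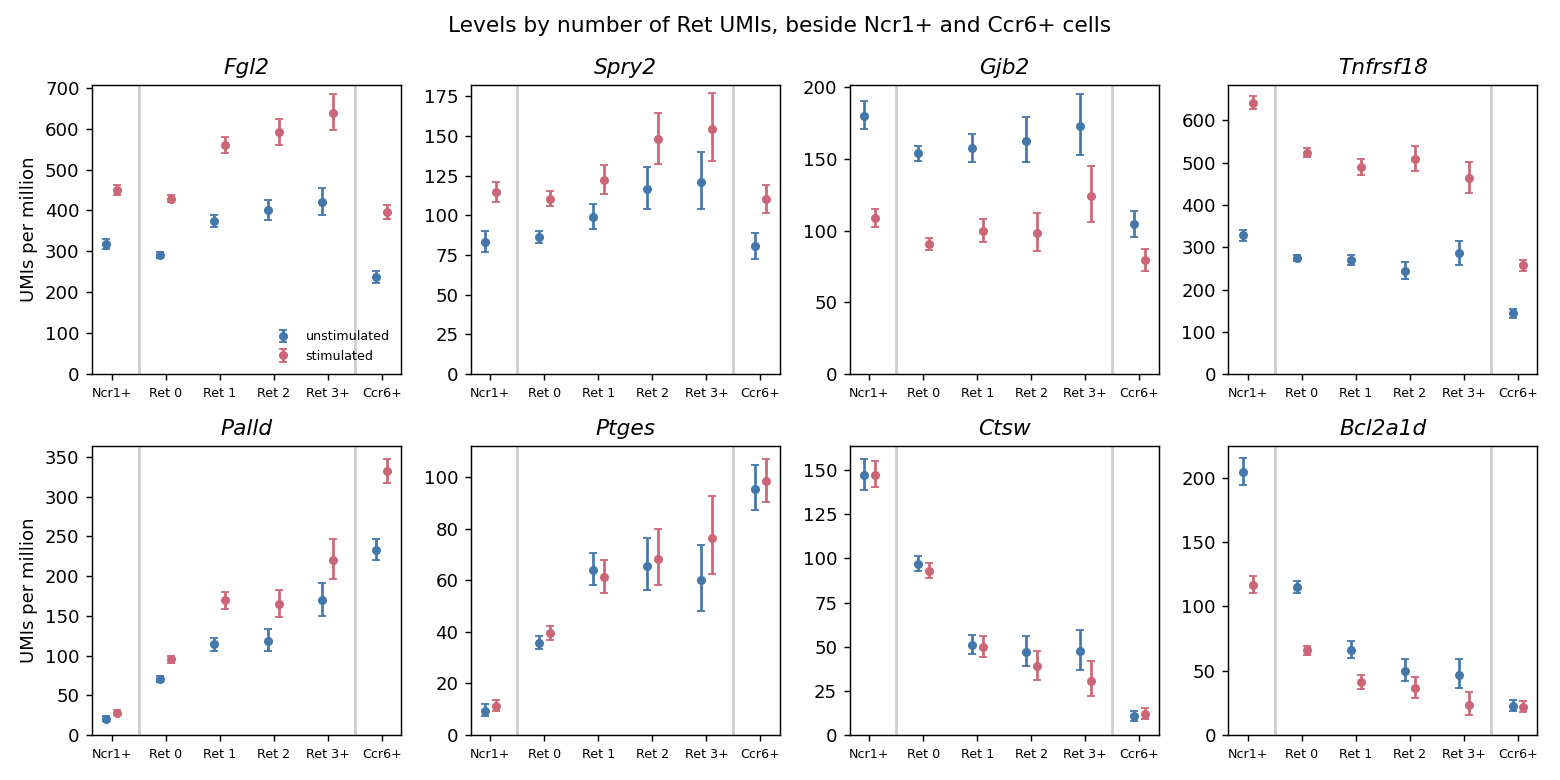
Level in UMIs per 1e+06 UMIs of the 4 proposed markers (top) and of the 4 most different genes of at least 50 CPM other than Igha (bottom), in gate cells with 0, 1, 2 or at least 3 Ret UMIs and in Ncr1-positive and Ccr6-positive cells. Points are summed levels and bars 95% Poisson intervals; Fgl2 and Spry2 exceed the levels of both outer groups in cells with Ret UMIs, whereas Palld, Ptges, Ctsw and Bcl2a1d lie between them.

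The higher Fgl2 and Spry2 of cells with Ret was not particular to the gate. Among Ncr1-positive cells, Fgl2 stood at 394 CPM (367 to 423) with Ret and 290.5 CPM (276 to 305) without in the unstimulated library, and at 560.5 against 412 CPM in the stimulated one. Among Ccr6-positive cells the Fgl2 values were 269.95 against 215 CPM and 440.1 against 361 CPM, and among CD3-positive cells 345 against 189 CPM and 271 against 128 CPM. Spry2 had the same direction in all 6 of these comparisons, for example 93.7 against 71.6 CPM in unstimulated Ccr6-positive cells and 44.9 against 16.3 CPM in stimulated CD3-positive cells.

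Over all genes, few differed by 1.5-fold between the Ret-positive and Ret-negative cells of the gate. A gene was counted as measured when it had at least 10 CPM on 1 or both sides and at least 20 UMIs in all, and log2 ratios were computed with 0.5 UMI added to each sum. In the unstimulated library 23 of 6932 measured genes (0.332%) were at least 1.5-fold higher in Ret-positive cells and 53 (0.765%) at least 1.5-fold lower. In the stimulated library 32 of 6758 (0.474%) were higher and 59 (0.873%) lower. In both libraries alike, 4 of 6601 genes (0.0606%) were higher and 26 (0.394%) lower. Most of these were genes of low level, since at a minimum of 50 CPM only 2 genes were higher and 3 lower in both libraries. With members limited to cells of at least 2 Ret UMIs (752 and 549 cells), the single-library counts were 77 higher and 99 lower in the unstimulated and 82 and 153 in the stimulated library, and 17 genes were higher in both.

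Palld, Ptges, Arg1 and Fermt2 were the 4 genes higher in both. Palld, which encodes the actin-bundling protein palladin, stood at 123 CPM (116 to 130) in Ret-positive against 70.5 CPM (66.9 to 74.2) in Ret-negative unstimulated cells. In the stimulated library it stood at 175 CPM (167 to 184) against 95.3 CPM (91.1 to 99.7), and the log2 ratios were 0.80 and 0.88. Ptges, the terminal enzyme of prostaglandin E2 synthesis, was measured at 63.8 against 35.8 CPM and at 65.1 against 39.4 CPM (log2 0.83 and 0.72). Arg1, which breaks down arginine, was measured at 29.6 against 15.2 CPM and at 25.8 against 16.02 CPM. Fermt2, an adaptor of integrin adhesions, was measured at 17.1 against 8.97 CPM and at 18.1 against 11.2 CPM.

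The 26 genes lower in Ret-positive cells of both libraries included Ctsw, Nkg7, Xcl1, Fasl, Tbx21, Ctla4, Areg and Bcl2a1d. Ctsw, a protease of cytotoxic lymphocytes, was counted at 49.4 CPM (45.3 to 53.8) in Ret-positive against 97.1 CPM (92.9 to 101) in Ret-negative unstimulated cells, and at 44.5 CPM (40.4 to 49.0) against 92.8 CPM (88.7 to 97.2) in stimulated ones. Its log2 ratios were -0.97 and -1.06. Nkg7, a protein of cytotoxic granules, was at 15.9 against 40.3 CPM and at 15.7 against 44.1 CPM. The chemokine gene Xcl1 was at 7.19 against 25.1 CPM and at 7.05 against 31.5 CPM, and the death ligand gene Fasl at 5.42 against 19.1 CPM and at 4.42 against 14.5 CPM. Tbx21, which encodes the type 1 lineage factor T-bet, was at 7.75 against 13.0 CPM and at 6.53 against 12.7 CPM. The inhibitory receptor gene Ctla4 was at 11.1 against 17.9 CPM and at 121 against 213 CPM. Areg, the growth factor amphiregulin of tissue repair, was at 18.1 against 46.6 CPM and at 10.6 against 26.5 CPM. The survival gene Bcl2a1d was at 59.5 against 115 CPM and at 37.3 against 65.8 CPM, but it has near-identical copies (Bcl2a1b among them, also lower) between which reads may be split.

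Igha and Jchain, also among the 26, rested on single cells. Ret-negative cells held 5002 Igha UMIs in the unstimulated library, of which 1 cell gave 96.1%, and in the stimulated library 1 cell gave 95.9%. Without cells of at least 10 immunoglobulin or globin UMIs 24 genes were lower in both libraries.

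The direction of these differences followed the one that separates Ccr6-positive from Ncr1-positive cells. At a milder size chosen after the values were seen (at least 50 CPM and 1.25-fold in both libraries), 18 of 2830 genes (0.636%) were higher in Ret-positive cells and 28 (0.989%) lower. Of the 18, 11 were also at least 1.5-fold higher in Ccr6-positive than in Ncr1-positive cells of both libraries and 0 the reverse, among them Palld, Ptges and Cx3cl1, the gene of the chemokine fractalkine. Of the 28, 24 were at least 1.5-fold higher in Ncr1-positive cells and 1, the MHC class II invariant chain gene Cd74, in Ccr6-positive cells. Among all 2830 genes the same counts were 110 (3.89%) and 185 (6.54%). Across 2829 of these genes the log2 ratio of Ret-positive over Ret-negative cells and that of Ccr6-positive over Ncr1-positive cells had a Pearson correlation of 0.70 in each library (Spearman 0.62 and 0.61). The genes are not independent replicates, and the compared groups come from the same library. The log2 ratios of Ret-positive over Ret-negative cells had a Pearson correlation of 0.70 between the libraries.

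**Figure D3:**
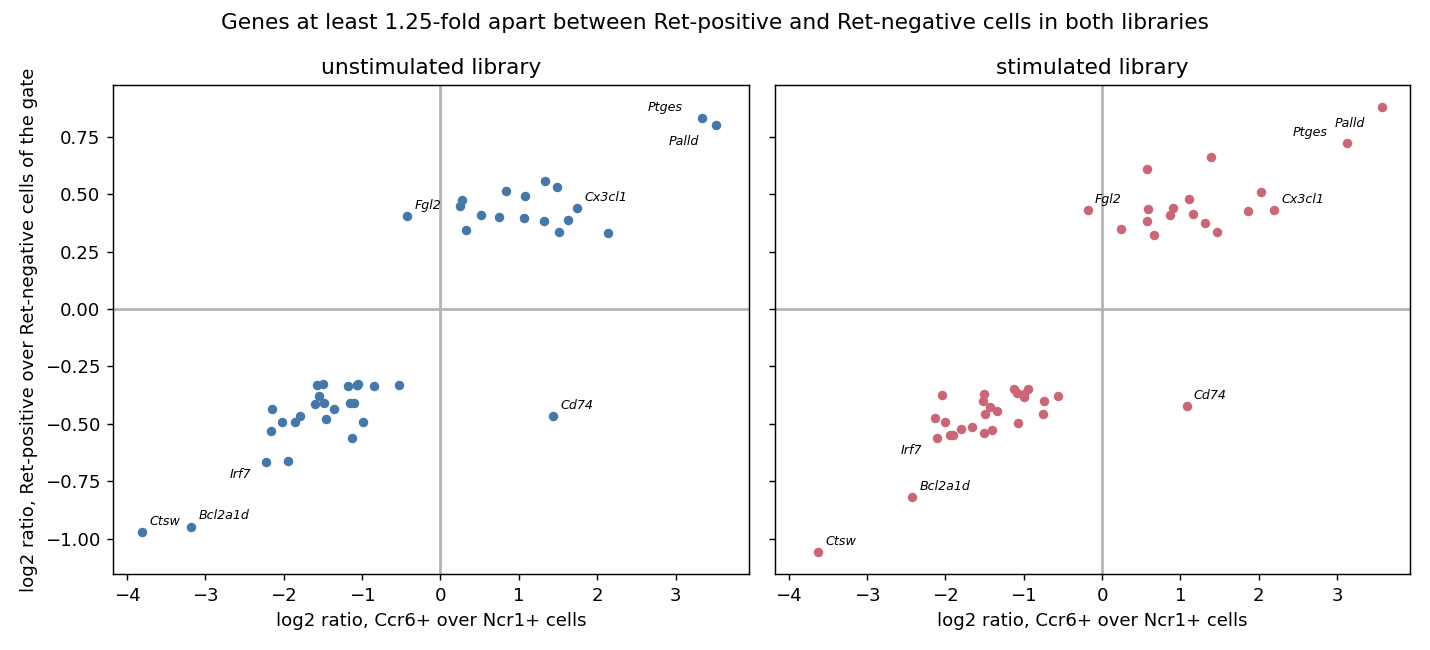
Log2 ratio of Ret-positive over Ret-negative gate cells (vertical) against that of Ccr6-positive over Ncr1-positive cells (horizontal) for the 45 genes of at least 50 CPM and 1.25-fold in both libraries, Igha left out. Each point is 1 gene; apart from Cd74 and Fgl2, the genes higher with Ret lie on the Ccr6 side and the genes lower with Ret on the Ncr1 side.

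In Palld, Ptges, Ctsw and Bcl2a1d the Ret-positive cells stood between the 2 subsets, nearer to Ccr6-positive cells than the Ret-negative cells were. Palld was at 20.4 and 28.0 CPM in Ncr1-positive and at 233 and 332 CPM in Ccr6-positive cells of the unstimulated and stimulated library. Ctsw was at 147 CPM in Ncr1-positive cells of each library and at 10.4 and 11.9 CPM in Ccr6-positive cells. Fgl2 did not follow this order: it was at 318 and 450.1 CPM in Ncr1-positive and at 237 and 396 CPM in Ccr6-positive cells, both below the Ret-positive cells. Nor did Spry2, at 83.1 and 115 CPM in Ncr1-positive and 80.5 and 110.3 CPM in Ccr6-positive cells. Of the 9 measured genes of a list of NCR-positive ILC3 markers, 4 were lower in unstimulated Ret-positive cells (Tbx21, Xcl1, Gzmb and Ccl5) and 0 higher, with a median log2 ratio of -0.29. In the stimulated library 3 were lower (Tbx21, Xcl1 and Ifng) and 1, Ccl5, higher, with a median of -0.27. Of 10 measured genes of a Ccr6-positive, lymphoid tissue inducer list, 0 and then 1 (Il17a) were at least 1.5-fold higher, with medians of 0.28 and 0.31. The medians over all measured genes were 0.0053 and -0.0098. Of all measured genes, 0.332% were called higher and 0.765% lower in the unstimulated library, and 0.474% and 0.873% in the stimulated one. These shares are also the background for the Ret comparisons of the lists below.

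Counted per cell at 3000 UMIs, 55.3% (53.1 to 57.5) of the unstimulated Ret-positive cells held more UMIs of the Ccr6 list than of the NCR list, against 46.9% (45.3 to 48.5) of Ret-negative, 29.5% of Ncr1-positive and 77.2% of Ccr6-positive cells. After stimulation these shares were 73.7% (71.4 to 76.0), 60.5% (58.7 to 62.2), 39.5% and 87.3%. The Ccr6 list holds Il17a and Il17f, both of which rose with the stimulus, so the 2 libraries' shares are not on 1 scale. Absence of a Ccr6 or Ncr1 UMI in a cell does not show that the cell lacks the gene.

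Palld and Ptges were also higher with Ret within Ncr1-positive cells, whereas other genes, such as Plac8 in the stimulated library (log2 0.20 in the gate and -1.21 in Ncr1-positive cells), went different ways. There Palld stood at 29.1 CPM with Ret against 17.2 CPM without in the unstimulated library, and at 65.5 against 15.0 CPM in the stimulated one. The log2 ratios of Ptges in these cells were 1.26 and 1.86. Within Ccr6-positive cells, Palld was nearly level, with log2 ratios of -0.19 and -0.06, and Ptges leaned higher with Ret, with 0.58 and 0.27, short of 1.5-fold. Across 2829 genes, the correlation between the Ret ratio in the gate and in Ncr1-positive cells was 0.51 and 0.60, and with the Ccr6-positive cells it was -0.0026 and 0.15. Smaller groups give noisier ratios, which lowers such a correlation, and how much was not tested.

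Of the RET pathway itself, the receptor's partners were near absent in these cells. The 10 genes of GDNF-family ligands and co-receptors summed to 0.467 and 0.421 CPM in Ret-positive cells, with Gdnf, Gfra2, Gfra3, Gfra4 and Gfral at 0 in both libraries. A count of 0 allows up to 3 UMIs among the 10703971 and 9499399 UMIs of the Ret-positive cells. Of the 21 adaptors and effectors downstream of RET, 14 and 12 were measured. Among them 1 gene was 1.5-fold higher with Ret in the unstimulated library (Grb10, an adaptor that binds receptor kinases, 11.3 against 7.15 CPM) and 0 in the stimulated library, where its values were 8.63 and 6.03 CPM. The adaptor gene Grb2 stood at 204 against 199.5 CPM and 202 against 205 CPM, and Shc1 at 32.4 against 31.9 CPM and 32.4 against 32.3 CPM. The list's medians, 0.0023 and -0.090, were near those of all genes.

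Targets and feedback inhibitors of the ERK pathway, which RET can activate, did not move as a group. Of 9 and 11 measured genes, 0 were higher and 1 lower in the unstimulated, and 2 higher and 0 lower in the stimulated library. Spry2, also on this list, was higher with Ret in both libraries but by less than 1.5-fold, as given above. Egr1, an immediate-early gene, was called on opposite sides in the 2 libraries: it was at 11.3 CPM in Ret-positive against 27.2 CPM in Ret-negative unstimulated cells and at 44.1 against 24.2 CPM in stimulated ones. Single cells carried much of it, since 1 stimulated Ret-positive cell gave 28.6% of 419 Egr1 UMIs, and 1 cell gave 48.2% of 274 UMIs of Ier3, the other gene called in that library. The phosphatase gene Dusp6 was at 38.3 against 41.7 CPM and at 24.3 against 22.0 CPM.

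Receptors through which nerves reach immune cells were sparse: 4 and 5 of 26 listed genes were measured. Ramp3, a co-receptor for peptides of the calcitonin family, was at 3335 against 2948 CPM and 2612 against 2248 CPM. Ramp1, the co-receptor for calcitonin gene-related peptide, was at 17.8 against 14.0 CPM in the unstimulated library and at 16.6 against 10.7 CPM in the stimulated one, where it and its partner gene Calcrl (10.3 against 6.38 CPM) passed 1.5-fold. Gjb2 was the 1 gene of 12 connexins and pannexins that was measured. Of the TNF receptor family, 7 and 8 of 16 genes were measured and 0 passed 1.5-fold in either direction. Of the coinhibitory and suppressive list, which includes Fgl2, 10 genes were measured in each library, and Ctla4 and the galectin gene Lgals3 were lower in both, with 0 higher.

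Lineage factors differed little. Of 20 measured genes in each library, Tbx21 alone was lower and 0 were higher. Gata3, a factor of innate lymphoid cell development, was at 61.3 against 56.0 CPM and 37.4 against 33.7 CPM. Runx3 was at 741 against 656 CPM and 858 against 734 CPM. Il23r itself was at 135 (128 to 142) against 124 CPM and at 198 (189 to 207) against 182 CPM.

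Among effector cytokines, Areg and Xcl1 were at least 1.5-fold lower with Ret in both libraries and Il17a higher in the stimulated one, while Il22 and Il17f leaned higher without reaching that size. Il22, the epithelial barrier cytokine, stood at 6311 CPM in Ret-positive against 5073 CPM in Ret-negative unstimulated cells (log2 0.31), and at 28239 against 26866 CPM after stimulation (log2 0.07). Il17a was at 32.8 CPM (29.5 to 36.4) against 24.3 CPM (22.3 to 26.5), and at 485 CPM (471 to 499) against 294 CPM (287 to 302), where its log2 ratio of 0.72 passed 1.5-fold. Il17f was at 104 against 84.2 CPM and at 983 against 695 CPM. Outside the gate the direction varied, given here for the unstimulated and then the stimulated library. In Ncr1-positive cells the log2 ratios with Ret were 1.82 and 1.08 for Il17a and 1.05 and 0.68 for Il17f. In Ccr6-positive cells they were 0.41 and -0.95 for Il17a and 0.20 and -0.43 for Il17f. In CD3-positive cells they were -2.12 and -0.54 for Il17a and -2.36 and -0.71 for Il17f. The Il17a ratio of unstimulated Ncr1-positive cells rests on few counts, 27 UMIs with Ret and 21 without.

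Per cell, Il22 was higher with Ret through the lower and middle part of the unstimulated cells. At 3000 UMIs per cell the median Il22 count was 12 UMIs in Ret-positive and 7 in Ret-negative cells, and 15.8% (14.3 to 17.5) against 25.6% (24.2 to 27.0) of cells had none, while the 75th percentiles were 25 and 20 UMIs and the 95th 64 and 61 UMIs. Ncr1-positive cells had a median of 4 UMIs with 29.0% at none, and Ccr6-positive cells 15 UMIs with 4.61% at none. After stimulation the medians were 67 and 60 UMIs and nearly every cell had Il22: 0.138% of Ret-positive and 0.294% of Ret-negative cells had none. Il22 is abundant in both libraries, so free RNA may give low counts in cells that do not make it.

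**Figure D4:**
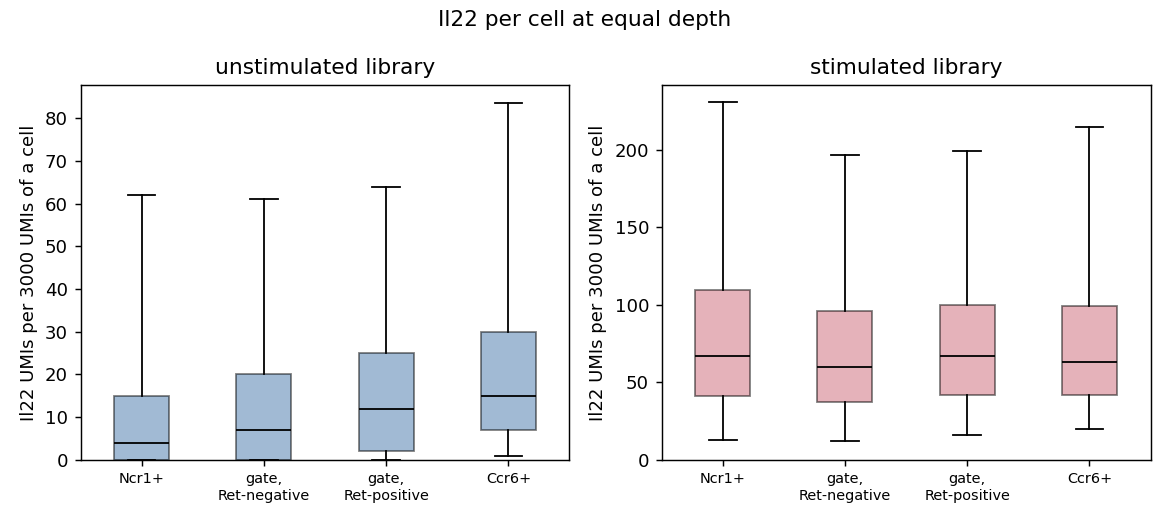
Il22 UMIs per cell after thinning each cell to 3000 UMIs, in the unstimulated (left) and stimulated (right) library, on separate scales. Lines mark the median, boxes the middle 50% and whiskers the 5th and 95th percentiles of cells; the unstimulated medians run from 4 in Ncr1-positive through 7 and 12 in the gate to 15 in Ccr6-positive cells, and all stimulated medians lie between 60 and 67.

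The stimulated Ret-positive cells differed from the unstimulated ones in STAT3-linked genes, IL-17 cytokines and Il22, and did so much as the Ret-negative cells did. In Ret-positive cells 295 of 6943 measured genes (4.25%) were at least 1.5-fold higher in the stimulated library and 392 (5.65%) lower. In Ret-negative cells the counts were 306 of 6950 (4.4%) and 318 (4.58%), and 243 genes (3.57% of 6801) were higher and 208 (3.06%) lower in both. The median log2 ratio over all genes was -0.12 in Ret-positive and -0.11 in Ret-negative cells. Scaling by the trimmed mean of M values (TMM) moved the Ret-positive median to -0.016 and the counts to 362 higher and 231 lower, and median-of-ratios scaling gave 371 and 224, so the balance of higher to lower depends on the scaling. The Ret-positive and Ret-negative values come from the same 2 libraries, and the stimulus and the library cannot be told apart. Of 16 genes known to be induced by tissue dissociation, 2 (Jund and Egr1) were at least 1.5-fold higher and 0 lower in stimulated Ret-positive cells, and their part in the other differences was not tested.

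Batf, a transcription factor of the AP-1 family needed for IL-17 output, had the highest ratio among genes that reached 50 CPM in 1 or both libraries. It was at 26.2 CPM (23.2 to 29.4) in unstimulated and 525 CPM (511 to 540.0) in stimulated Ret-positive cells (log2 4.33), and at 27.2 and 554 CPM in Ret-negative cells (log2 4.35). Il17a went from 32.8 to 485 CPM (log2 3.88, against 3.59 in Ret-negative cells) and Il17f from 104 to 983 CPM (3.24 and 3.05). Ctla4 went from 11.1 to 121 CPM (3.44 and 3.57), the stress-response gene Gadd45g from 107 to 1154 CPM (3.43 and 3.41) and the transcription factor gene Prdm1 from 12.1 to 87.1 CPM (2.84 and 2.65). Pqlc1 (log2 3.07), Apex1 (2.45), Sbno2 (2.44), Il1r1 (2.31), Elovl6 (2.30) and Bcl3 (2.24) followed, and each of these 6 also had a log2 ratio above 2 in Ret-negative cells. Il22 itself had a log2 ratio of 2.16 in Ret-positive and 2.41 in Ret-negative cells.

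Of a list of 26 STAT3 targets, 24 were measured, and the same 13 genes were at least 1.5-fold higher and 0 lower in Ret-positive and in Ret-negative cells, with medians of 0.81 and 0.86. Over all measured genes, 4.25% were higher and 5.65% lower in Ret-positive cells, with a median of -0.12. In Ret-negative cells these values were 4.4%, 4.58% and -0.11. The 13 include Socs3, a feedback inhibitor of STAT3 signalling (278 to 885 CPM), Cebpd (53.5 to 218 CPM), Ahr, the aryl hydrocarbon receptor (49.3 to 158 CPM) and Hif1a (197.5 to 315 CPM). Of the TNF receptor family, 4 of 8 measured genes were higher in stimulated Ret-positive cells. Tnfrsf18 went from 266 to 491 CPM and the death receptor gene Fas from 11.8 to 41.5 CPM, Tnfrsf1a and Tnfrsf26 were the others, and Cd27 was lower. Fgl2 went from 387 to 578 CPM (log2 0.58) and Spry2 from 106 to 133 CPM (0.32), ratios close to the 0.55 and 0.36 of Ret-negative cells. Both genes fell short of 1.5-fold in both groups of cells. Gjb2 went the other way, from 161 to 103 CPM (log2 -0.64, and -0.76 in Ret-negative cells).

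Other genes were lower in the stimulated library, among them Kit, Gata3 and Cxcr6. Kit, the receptor for stem cell factor, went from 508 to 304 CPM and Gata3 from 61.3 to 37.4 CPM in Ret-positive cells. The homing receptor gene Cxcr6 went from 595 to 314 CPM. Among the genes with the lowest ratios were the long noncoding RNA Gm10076 (1418 to 282 CPM, log2 -2.33), the adaptor gene Stap1 (64.6 to 21.3 CPM, -1.60), the lectin gene Clec2d (65.9 to 24.6 CPM, -1.42) and Nt5e, the ectoenzyme CD73 (66.3 to 31.1 CPM, -1.09). Gm10827, N4bp2l1, Coq8a, mt-Atp8 and Apol7e had log2 ratios between -1.39 and -1.09. Hbb-bs, a globin gene, had the lowest ratio among genes that reached 50 CPM, but 1 unstimulated cell gave 84.9% of its 1092 UMIs and it was at 0 in stimulated Ret-positive cells.

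**Figure D5:**
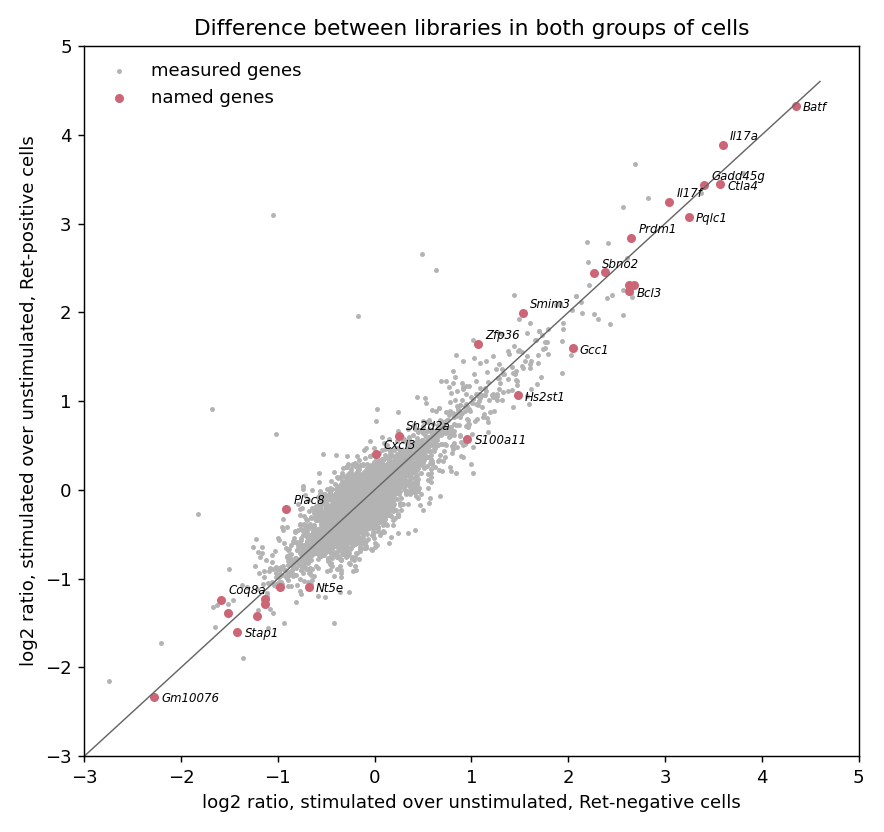
Log2 ratio of the stimulated over the unstimulated library in Ret-negative (horizontal) and Ret-positive (vertical) cells of the gate, for measured genes (grey), with the line of equality. Red marks named genes with the highest or lowest ratios in Ret-positive cells or the largest differences between the 2 groups. Most red genes lie close to the line, from Gm10076 at -2.28 and -2.33 to Batf at 4.35 and 4.33, with Plac8 and Zfp36 above it. Not drawn are 18 genes outside the axes or left out, Hbb-bs among them.

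Some genes had different ratios in the 2 groups of cells. Among genes that reached 50 CPM in 1 or both libraries in Ret-positive and likewise in Ret-negative cells, the difference between the log2 ratios of the 2 groups was largest for Plac8 (0.70), Zfp36 (0.57), Smim3 (0.46), Cxcl3 (0.39) and Sh2d2a (0.36) in the upward direction. Plac8 was at 73.1 and 63.0 CPM in Ret-positive cells and at 103 and 54.9 CPM in Ret-negative cells of the unstimulated and stimulated library. Zfp36, which encodes an RNA-binding protein that shortens the life of cytokine transcripts, went from 51.2 to 159 CPM with Ret and from 58.8 to 123 CPM without, and 1 stimulated cell gave 7.27% of its UMIs. Gcc1 (-0.45), Nt5e (-0.41), Hs2st1 (-0.41), Bcl3 (-0.39) and S100a11 (-0.38) had the largest differences in the other direction among the same genes. S100a11, a calcium-binding protein, went from 95.01 to 142 CPM in Ret-positive and from 115 to 223 CPM in Ret-negative cells. With 1 library on each side these differences have no replicate check.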

How the data were processed

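Each group is 1 10x Genomics library of deposited whole-number UMI counts per gene and barcode. The submitters' processing notes name mm10 and Cell Ranger 3.1.0, whereas the deposited file headers name cellranger 6.0.0. Here cells were kept at 500 genes and 10% mitochondrial UMIs or better, gated by transcript, and their counts summed per group. Levels are UMIs per 1e+06 UMIs of the summed cells (CPM) with exact Poisson 95% intervals, and shares have Clopper-Pearson intervals. With 1 library per group no test was run; a difference of 1.5-fold was called by size. Shares were also computed after thinning to 3000 UMIs (seed 7). No doublet caller was run; cells above the 95th percentile of UMIs were left out in 1 alternative. Named genes were those past 1.5-fold in both libraries at 50 CPM or more, the 12 highest and 10 lowest with stimulation at 50 CPM or more, the 5 largest differences each way between Ret-positive and Ret-negative stimulation ratios (50 CPM or more in both), and the proposed markers; other genes come from 28 gene lists or were chosen after their values were seen. The members, markers and lists were chosen with earlier results of these data known. Alternatives used TMM (edgeR 4.0.16) and median-of-ratios scaling (DESeq2 1.42.0). Analyses ran in Python 3.11.15 with NumPy 2.4.6 and SciPy 1.17.1, and the ratios were tested on simulated counts. Some members of the lists are counted but not reported by name here.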

Additional observations from a re-analysis of the deposited data

How the results depend on the processing

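No paired analysis was possible because each group has 1 library. Ret-positive cells were 19.4% of kept unstimulated and 16.4% of kept stimulated cells. These shares moved to 6.97% and 5.93% with at least 2 Ret UMIs, 16.1% and 12.9% when cells were thinned before the gate, 17.4% and 14.4% with no MHC class II UMI, and 5.35% and 4.72% with no T cell receptor constant UMI.

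Counts of genes 1.5-fold higher and lower with Ret, given for the unstimulated library, the stimulated library and both, were as follows. At least 2 Ret UMIs gave 77, 82 and 17 higher and 99 and 153 lower in the single libraries. At least 3, added after seeing the data, gave 244, 275 and 43 higher and 264, 331 and 59 lower. Cells without a T cell receptor constant UMI gave 120, 122 and 12 higher and 187 and 247 lower in the single libraries. A minimum of 50 CPM gave 3, 7 and 2 higher and 9, 8 and 3 lower, and no filter gave 2132, 2508 and 584 higher and 3317, 1758 and 619 lower. Without cells above the 95th percentile of UMIs, 21 were higher in the stimulated library. By construction the Ret threshold and the constant-gene filter leave fewer cells (752 and 549 with at least 2 Ret UMIs, 263 and 193 with at least 3, 577 and 437 without constant-gene UMIs), and no filter admits genes with few UMIs.

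For stimulation in Ret-positive cells, 50 CPM gave 136 higher and 119 lower, no filter 2935 and 3012, and at least 3 Ret UMIs 488 and 901. Lower genes numbered 602 with at least 2 Ret UMIs, 596 without constant-gene UMIs, 231 with TMM and 224 with median-of-ratios scaling. Of 458 recomputed log2 ratios of named genes, 363 stayed within the counting interval of the reported value, 94 moved and 1 reversed: Hbb-bs, to 0.17 with at least 3 Ret UMIs. The cause of these changes was not tested.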
